A study of Mus musculus with 15 samples.

Results

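The genes described here were 8 C-type lectin receptors on mouse chromosome 6, chosen by name: Clec4a1, Clec4a2, Clec4a3, Clec4n, Clec4d and Clec4e in the Clec4 block, and Clec12a and Clec7a in the Dectin-1 block. They were 8 of the 22020 protein-coding genes (with polymorphic pseudogenes, the type the annotation gives Clec7a) that were measured in the same way. Bone marrow-derived macrophages (BMDMs), grown from C57BL/6 marrow (mice aged 8 to 10 weeks) for 6 to 8 days in medium with L929-conditioned supernatant, were profiled by CUT&RUN, which releases and sequences the DNA around an antibody target. H3K27ac and H3K36me3 were each profiled in 2 WT and 2 cKO biological replicates, and the histone variant H3.3 was profiled through its HA tag in 2 further replicates. WT cells carried loxP-flanked H3f3a (fl/fl) and H3f3b (fl/fl), which both encode H3.3, and no Cre. The cKO cells carried the same floxed alleles and Cre at both copies of LysM (Lyz2), a locus active in macrophages and granulocytes, so the deletion is made as myeloid progenitors mature in the animal and the culture. H3.3-HA cells carried an HA tag at H3f3b, so the H3.3 made from H3f3a was not seen. Each library gave a list of enriched regions called against IgG, and the deposited lists held positions without heights.

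C-type lectin receptors bind carbohydrates and lipids on microbes and on damaged cells. Clec7a (Dectin-1) recognises fungal beta-glucan and signals through the kinase Syk from its own cytoplasmic tail, whereas Clec4n (Dectin-2), Clec4e (Mincle) and Clec4d (MCL) signal through the adaptor chain Fcer1g and then through Syk, Card9, Bcl10 and Malt1. Clec4a2 (DCIR) and Clec12a (MICL) carry inhibitory motifs that recruit the phosphatases Ptpn6 and Ptpn11, and Clec4a1 and Clec4a3 belong to the DCIR family. H3K27ac marks active promoters and enhancers, and H3K36me3 is laid down over the bodies of transcribed genes.

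On mm10 the Clec4 block ran over 368 kb, from 122921848 to 123289870, and the Dectin-1 block over 130.1 kb, from 129342691 to 129472779, with 6.05 Mb between them. Clec4d and Clec4e faced each other, with their 3′ ends 6.52 kb apart. For each gene the percent of its body plus 5 kb upstream that lay in called regions was measured in each library. These windows did not overlap and came to 179.9 kb. The 25-base stretches of the windows (the read length in the methods) occurred once in the genome at 80.3% to 90.8% of positions for Clec4a1, Clec4d, Clec4e, Clec12a and Clec7a. The share was 62.7% for Clec4a3, 60.2% for Clec4a2 and 59.5% for Clec4n. At the last of these, 16.2% of positions were also found in the window of another of the 8 genes. Its part in the results was not tested.

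The lists differed in size. The cKO H3K27ac lists covered 46.2 and 62.0 Mb of the genome from 30.0 and 25.6 M sequenced tags (M, mega), and the WT lists covered 89.6 and 74.8 Mb from 28.4 and 16.4 M tags. For H3K36me3, cKO 1 covered 90.7 Mb from 23.8 M tags, while cKO 2 and the WT lists covered 163 to 170.5 Mb from 14.0 to 23.5 M tags. Of the H3K36me3 tags, 19.3% fell in regions in cKO 1, beside 46.5% in cKO 2 and 47.1% and 50.2% in WT. The H3K36me3 differences are therefore given with and without cKO 1. Of the H3K27ac tags, 24.1% and 21.5% fell in regions in WT 1 and WT 2, and 11.8% and 17.8% in cKO 1 and cKO 2. An H3K27ac region was present at 7, 7, 6 and 7 of 7 macrophage markers in WT 1, WT 2, cKO 1 and cKO 2, at 1, 1, 2 and 1 of 5 neutrophil markers, at 1, 2, 2 and 2 of 4 dendritic cell markers, and at no more than 1 of 3 B cell or 1 of 3 T cell markers. The mean coverage of the 7 macrophage markers was 36.1% and 30.3% in WT and 21.2% and 25.8% in cKO. Adgre1, Itgam, Mertk and Lyz2 were lower in both cKO libraries, Cd68 was higher in both, and Csf1r and Fcgr1 overlapped. Lyz2, where Cre was inserted, was covered at 94.2% and 88.4% in WT and at 28.1% and 24.4% in cKO. Lyz2 had the largest difference of the 7 markers and enters their mean, so that mean does not describe the other markers. The bodies of H3f3a and H3f3b held H3K27ac regions in all 4 libraries. Of H3f3b, 23.9% and 24.1% was covered in WT and 55.4% and 73.6% in cKO. H3K36me3 covered 10.7% and 14.2% of it in WT and 39.6% and 33.6% in cKO. The paper places loxP sites around all exons of H3f3b, and the part of undeleted cells in these regions was not tested. Region lists hold no read counts and so cannot measure the extent of the deletion, and the genotype of each library rests on its label. The paper reports the deletion in BMDMs by PCR, RNA measurements and western blot. It also reports that the H3f3b deletion varied, being complete in some cKO samples and partial in others. The part of the library values in the results was not tested.

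In WT cells all 8 genes held regions of both marks, and all 8 held an H3.3-HA region in both replicates, against 44.0% of all genes. The median H3K27ac coverage of the 8 genes in WT was 26.8%, beside 8.00% over the 12780 genes that at least 1 library held a region for. The corresponding H3K36me3 medians were 41.5% and 30.7%. Clec4d had the most H3K27ac of the 8, with a WT mean of 89.8% ± 5.29 (SD, n = 2), and 99.9% of tested genes lay below it. Clec12a followed with 54.1% ± 0.594, then Clec4a1 with 38.4% ± 2.17 and Clec4e with 35.3% ± 2.65, which overlapped each other. The libraries of Clec7a (18.4% ± 4.87) overlapped those of Clec4n (16.9% ± 0.0829) and of Clec4a2 (15.5% ± 1.14), the last of which lay below Clec4n in both libraries, and Clec4a3 was lowest with 11.4% ± 0.949. H3K36me3 was more even, from 32.1% ± 1.67 at Clec4e to 54.3% ± 2.45 at Clec4a1.

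**Figure D1:**
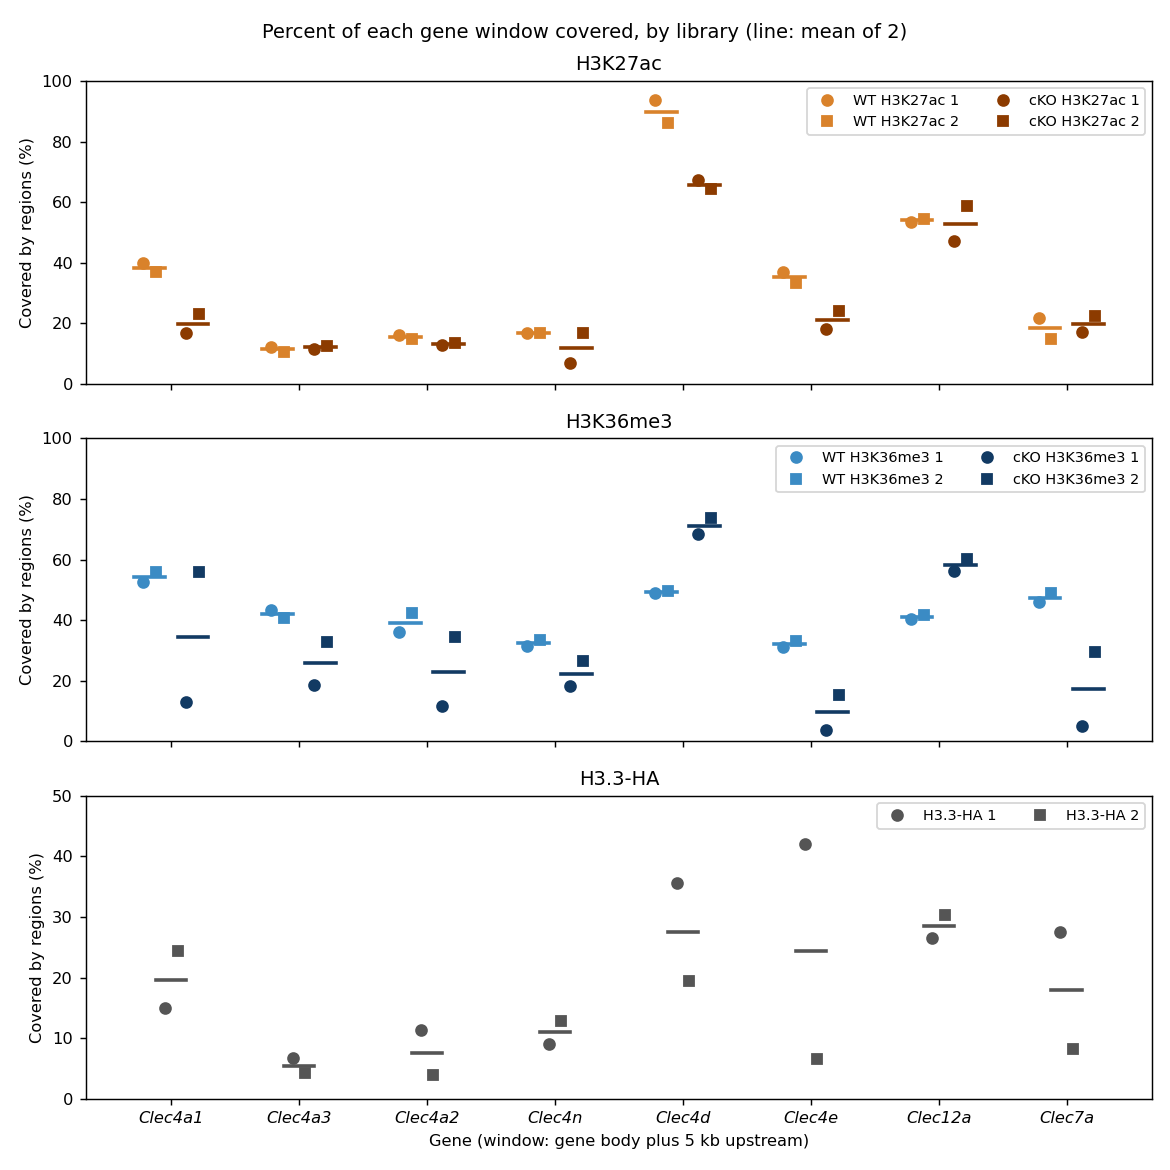
Percent of each gene window (y axis) covered by H3K27ac regions (top), H3K36me3 regions (middle) and H3.3-HA regions (bottom) for the 8 genes, with circles for replicate 1, squares for replicate 2 and a line at the mean of 2. H3K27ac at Clec4a1, Clec4d and Clec4e was lower in both cKO libraries, and H3K36me3 was higher in both cKO libraries at Clec4d and Clec12a.

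The first comparison asked where H3K27ac differed between WT and cKO cells. At 4 of the 8 genes, Clec4d, Clec4a1, Clec4e and Clec4a2, both cKO libraries lay below both WT libraries, and at 0 of 8 they lay above. Over all 12780 tested genes 38.2% were lower and 17.4% were higher by the same rule, so the count of lower genes was near the background. The median difference was -3.61 percentage points for the 8 genes and -1.01 over all tested genes. For the 8 genes it was -0.951 without cKO 1 and -8.48 without cKO 2. Without cKO 1, and likewise without WT 1, the count of genes above WT rose. In those settings 1 library stands for a group, and no share over all genes was taken. The exact permutation test of 2 against 2 libraries cannot give a p below 0.333, and each of the 4 genes reached this value (two-sided, 16 comparisons made in all). When all H3K27ac lists were cut to equal covered length by dropping their narrowest regions, the background became 17.0% lower and 37.8% higher, and 3 of the 8 genes were lower and 2 higher. In libraries from whole cultures, fewer cells that carry a mark and less of the mark per cell cannot be told apart.

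Clec4d, which helps bring Clec4e to the cell surface, was covered over 93.6% of its window in WT 1, 86.1% in WT 2, 67.2% in cKO 1 and 64.3% in cKO 2. The groups did not overlap, and the mean difference was -24.1 points. The loss lay at the 3′ side of the gene. In WT, H3K27ac reached 13.8 kb (WT 1) and 14.5 kb (WT 2) from the start, past the gene's end, with a gap between 8.16 and 9.15 kb in WT 2. In cKO the same region stopped at 8.70 and 8.13 kb, inside the gene. The region was among the widest of its list in every library, with a width of 17.7 kb in WT 1 (rank 82 of 61764 regions) and 12.2 kb in cKO 1 (rank 61 of 35018).

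Clec4e, the receptor for mycobacterial cord factor, was covered over 37.1% and 33.4% in WT and over 18.2% and 24% in cKO, a difference of -14.1 points (-26.5 over the gene body only). Both cKO libraries were lower. H3K27ac at the promoter stayed in all 4 libraries, whereas the part of the body from 2.42 to 3.65 kb, covered in both WT libraries, was covered in neither cKO library. With lists of equal covered length the difference was -6.97 points and the groups overlapped (exact permutation p = 0.667).

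**Figure D2:**
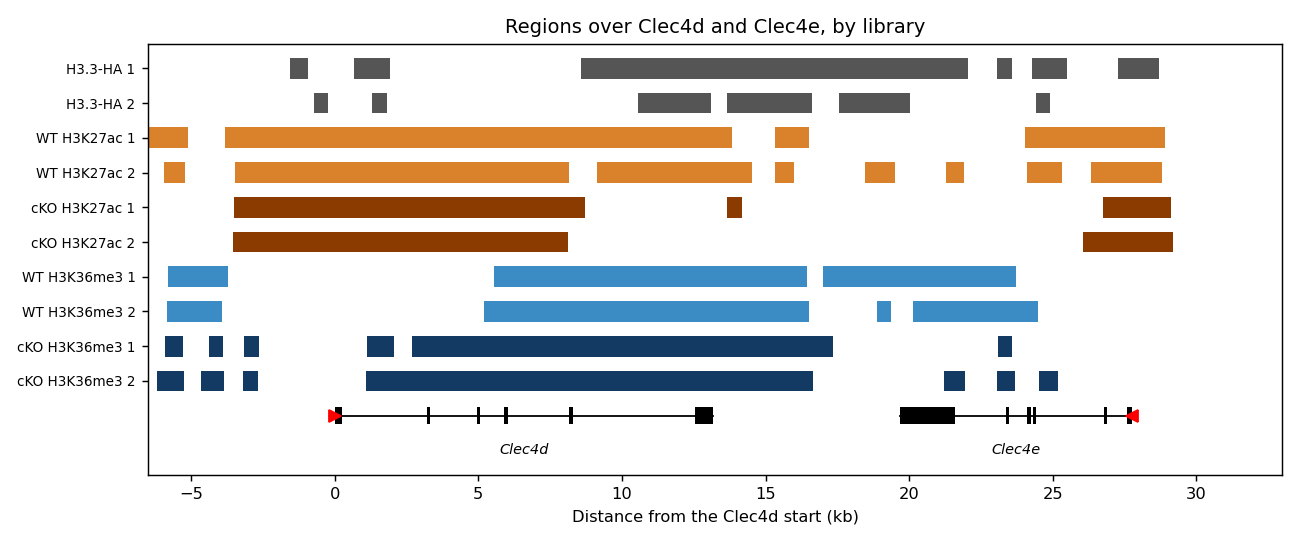
Called regions of the 10 libraries over Clec4d and Clec4e, by distance from the Clec4d start in kb, with bars for regions, black boxes for exons of coding transcripts and red arrowheads at gene starts. H3K27ac ended at 8.70 and 8.13 kb in the cKO libraries and reached 13.8 and 14.5 kb in WT, while over the Clec4d body cKO H3K36me3 began at 1.11 and 1.08 kb and WT H3K36me3 at 5.55 and 5.21 kb.

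Clec4a1 was covered over 39.9% and 36.9% in WT and over 16.7% and 23.0% in cKO, a difference of -18.5 points with no overlap, and of -11.5 with regions of at least 1 kb and -8.56 with equal covered length. Part of it came from the promoter region, which ran to 3.05 and 3.08 kb past the start in WT and to 0.897 and 1.43 kb in cKO, with a further piece from 2.38 to 2.89 kb in cKO 2. Apart from this, regions at 122925472-122926408 and 122928184-122929043 were called in both WT libraries and in neither cKO library. At Clec4a2 the values were 16.3% and 14.7% in WT and 13.0% and 13.5% in cKO, a difference of -2.29 points. A region near its 3′ end, 123140742-123141653, was called in both WT libraries only. The direction at Clec4a2 turned to 0.507 points with regions of at least 1 kb and to 1.10 points with equal covered length.

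The other 4 genes overlapped between genotypes. Clec4a3 was at 12.1% and 10.7% in WT and 11.6% and 12.7% in cKO. Clec4n was at 16.9% and 17.0% in WT, 6.94% in cKO 1 and 17.0% in cKO 2. Its promoter region was missing in cKO 1 alone, and without that library the difference was 0.113 points. Clec12a was at 53.6% and 54.5% in WT, 47.1% in cKO 1 and 58.6% in cKO 2, on both sides of WT. Clec7a was at 21.9% and 15% in WT and 17.2% and 22.4% in cKO, yet the position of its regions differed. In WT the first H3K27ac region began 0.377 kb (WT 1) and 0.367 kb (WT 2) inside the gene, and the 300 bases around the start (250 before and 50 after) held none. In both cKO libraries 300 of these 300 bases lay in a region, from -0.347 to 2.44 kb in cKO 1 and from -0.264 to 2.47 kb in cKO 2. The WT regions of Clec7a were narrow, and where narrow regions were dropped its difference of 1.37 points became 9.22 (regions of at least 1 kb) and 17.1 (equal covered length) with no overlap of the groups. H3K27ac covered the RefSeq start in all 4 libraries at Clec4a1, Clec4a3, Clec4a2, Clec4d and Clec4e. At Clec4a2 this start lies inside the gene as GENCODE annotates it, and no library held H3K27ac at the GENCODE start.

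Among the 24 merged H3K27ac regions that touched the 8 windows, 11 were called in all 4 libraries, 3 only in both WT libraries and 0 only in both cKO libraries. The other 10 were called in other combinations. Over the genome 14.2% of merged regions were lost in this sense and 3.34% were gained. The covered length over the windows was 58.6 ± 3.0 kb in WT and 47.0 ± 5.72 kb in cKO (SD, n = 2), a difference of -11.5 kb. It was -7.48 kb without cKO 1 and -3.15 kb with equal covered length.

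**Figure D3:**
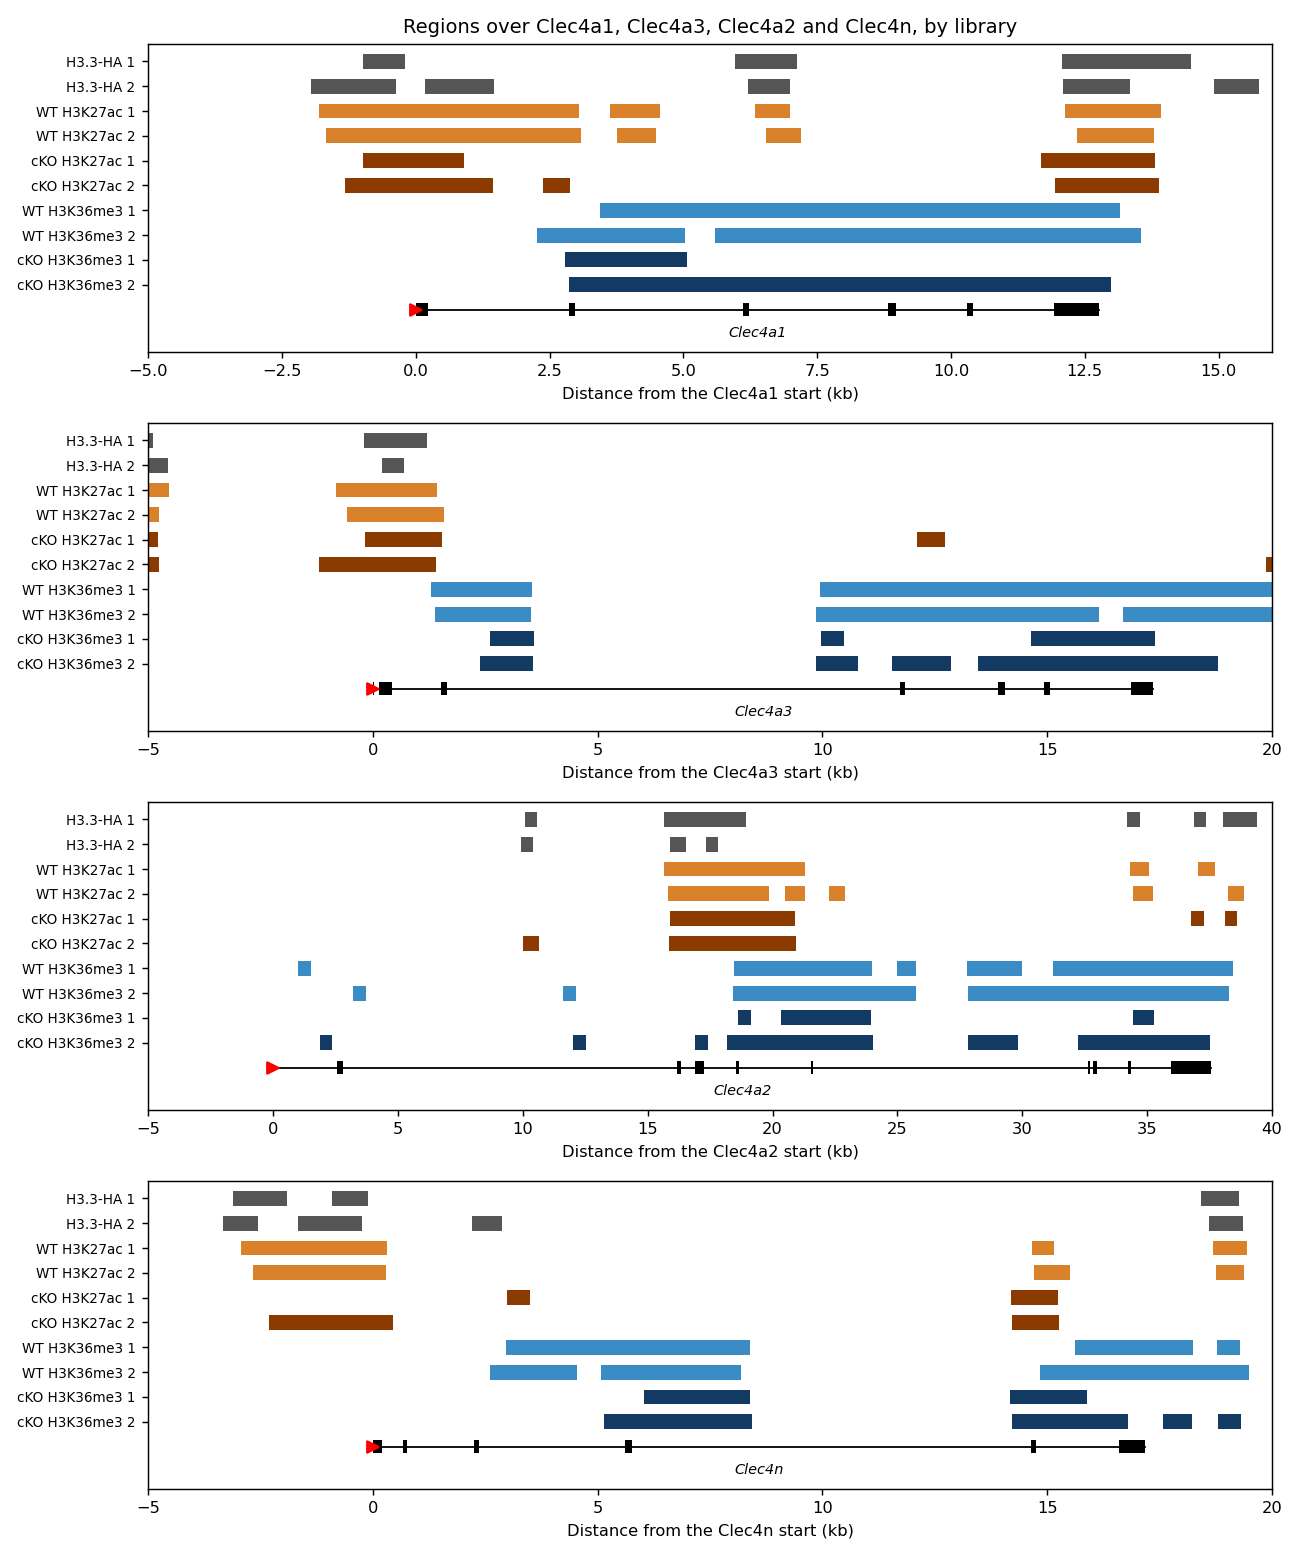
Called regions of the 10 libraries over Clec4a1, Clec4a3, Clec4a2 and Clec4n, by distance from each gene's annotated start in kb, with exons of coding transcripts as black boxes and the start as a red arrowhead. At Clec4a1 the WT H3K27ac regions between 3.62 and 7.20 kb had no counterpart in cKO, and at Clec4n the promoter region was missing in cKO 1.

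The second comparison addressed H3K36me3 over the same windows. Both cKO libraries lay below both WT libraries at 5 of 8 genes, Clec7a, Clec4e, Clec4a2, Clec4a3 and Clec4n, and above them at 2 of 8, Clec4d and Clec12a. Over the 11986 tested genes 37.7% were lower and 7.87% were higher. The median difference was -16.2 points for the 8 genes and -4.99 over all tested genes. It was -5.44 for the 8 genes without cKO 1, whose list was short. With lists of equal covered length, 2 of the 8 were lower and 2 higher, and the background was 17.4% lower and 14.7% higher.

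At Clec7a, 45.9% and 49.0% of the window was covered in WT, 5.13% in cKO 1 and 29.6% in cKO 2. Both cKO libraries were lower, by 30.1 points in the mean (a difference of -30.1, and of -17.9 without cKO 1). In WT 2 H3K36me3 formed a region from 3.25 to 11.7 kb past the start, through the gene's end, and in WT 1 regions from 2.77 to 3.41 kb and from 4.39 to 11.7 kb. In cKO 2 there were 4 regions, and in cKO 1 a region of 0.831 kb was left. At Clec4e the values were 31.0% and 33.3% in WT and 3.83% and 15.4% in cKO, a difference of -22.5 points, and -16.8 without cKO 1. Its groups overlapped with equal covered length (exact permutation p = 1.00), as did those of Clec4a3 and Clec4n.

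Clec4a3 was at 43.3% and 40.7% in WT and 18.7% and 32.8% in cKO, a difference of -16.2 points, and -9.15 without cKO 1. Clec4a2 was at 36% and 42.4% in WT, 11.6% in cKO 1 and 34.4% in cKO 2, a difference of -16.2 points, and -4.78 without cKO 1. Clec4n, the Dectin-2 receptor for fungal mannan, was at 31.5% and 33.4% in WT and 18.3% and 26.4% in cKO, a difference of -10.1 points, and -6.10 without cKO 1. With equal covered length its difference turned to 9.16 points. In each of these genes cKO 1 lay farther from WT than cKO 2. At Clec4a1 the mean difference of -19.9 points came from cKO 1 alone, which was at 12.9% where cKO 2 was at 55.8% and WT at 52.5% and 56.0%. Without cKO 1 it was 1.52 points.

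Clec4d and Clec12a went the other way, in cKO 1 as well as in cKO 2. Clec4d was at 49.0% and 49.8% in WT and at 68.5% and 73.6% in cKO, a difference of 21.7 points. WT H3K36me3 over the body began 5.55 and 5.21 kb past the start. In cKO 2 it began at 1.08 kb and ran to 16.7 kb without a break. In cKO 1 a region from 1.11 to 2.08 kb was followed by another from 2.68 to 17.3 kb. The stretch that gained H3K36me3 was thus the 5′ part of the gene, and the stretch that lost H3K27ac was the 3′ part. The length under both marks in both libraries of a genotype was 6.62 kb in WT and 6.87 kb in cKO. Genes lower in H3K27ac and higher in H3K36me3 by their means, as Clec4d was, made up 11.9% of the 10782 genes with regions of both marks.

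Clec12a, an inhibitory receptor that binds uric acid crystals, was at 40.3% and 41.6% in WT and at 56.4% and 60.1% in cKO, a difference of 17.3 points. Its H3K36me3 began 10.7 and 10.4 kb past the annotated start in WT and at 8.94 and 8.83 kb in cKO. The gap that split it in WT, from 20.5 to 21.3 kb, was closed in both cKO libraries. These regions measured 17.1 and 17.2 kb in cKO. A region ahead of the main start, 129346395-129349313, was called in both cKO libraries and in neither WT library. Another of this kind lay upstream of Clec4d at 123258921-123259463. These were 2 of the 19 merged H3K36me3 regions in the windows, with 11 called in all 4 libraries and 0 lost. Over the genome 2.45% of merged H3K36me3 regions were gained and 9.50% lost. For this mark too, the paper's count-based test gave more gained than lost peaks, whereas these shares count presence in lists of unequal size.

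Both gains kept their direction and non-overlap under each alternative that was run. At Clec4d the difference ranged from 12.7 points with regions of at least 1 kb to 30.2 with the gene body only, and at Clec12a from 15.4 without cKO 2 to 21.1 with the gene body only. Without cKO 1 they were 24.2 and 19.2. The covered length over the 8 windows was 75.1 ± 3.18 kb in WT and 59.7 ± 21 kb in cKO (SD, n = 2). The difference of -15.4 kb was -0.561 kb without cKO 1.

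**Figure D4:**
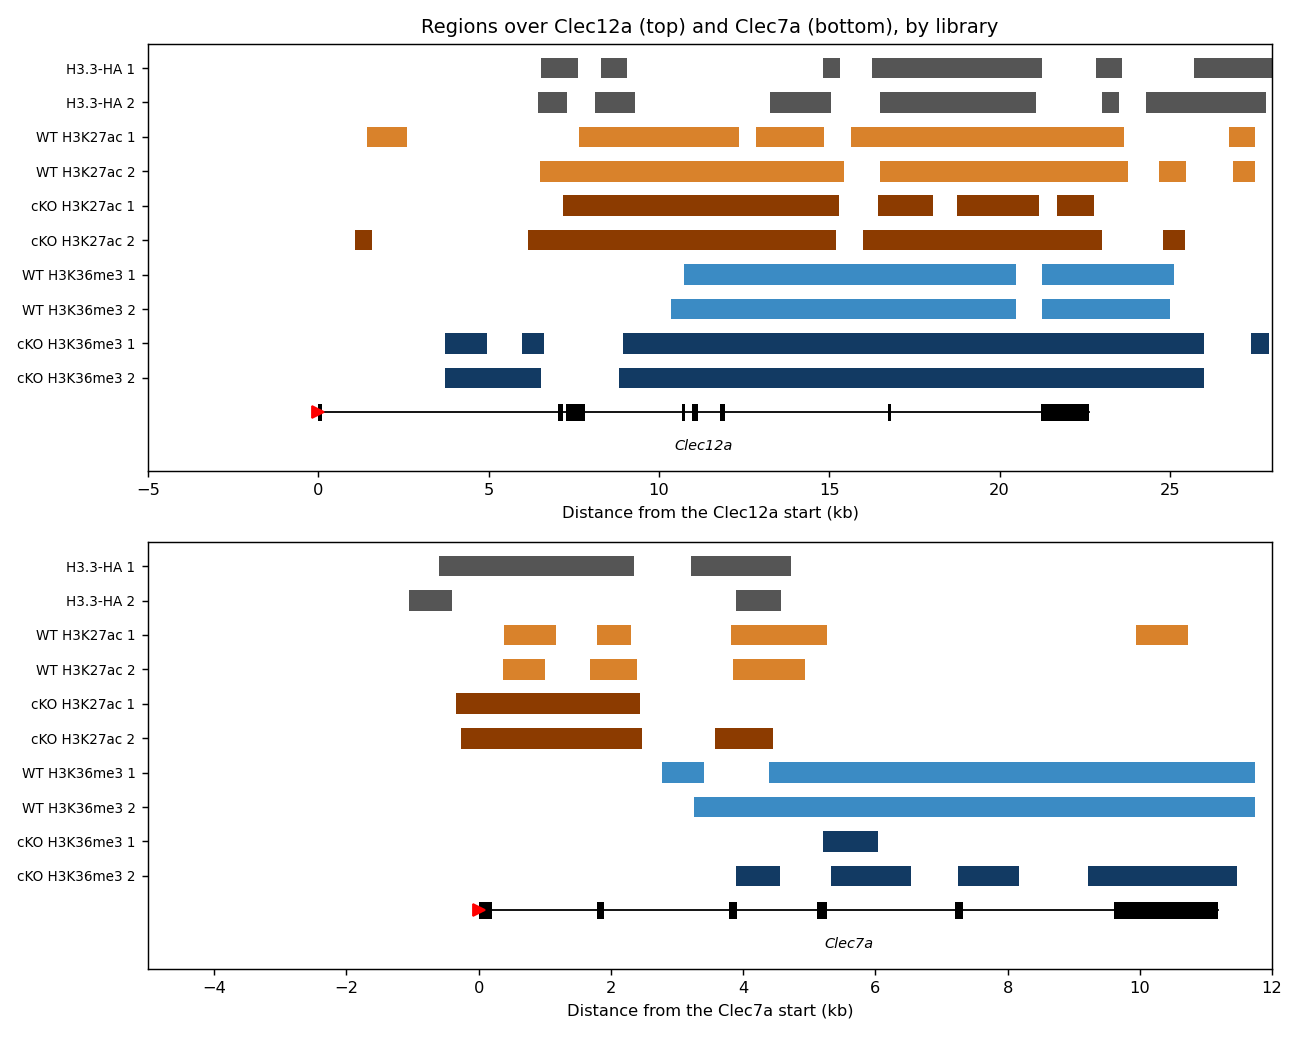
Called regions of the 10 libraries over Clec12a (top) and Clec7a (bottom), by distance from each gene's annotated start in kb, drawn as in the other maps. H3K36me3 covered more of Clec12a in both cKO libraries and less of Clec7a, and H3K27ac at Clec7a reached over the start in the cKO libraries.

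The third set of values placed H3.3 against the marks. Coverage by H3.3-HA regions in replicates 1 and 2 was 26.6% and 30.3% at Clec12a, 14.9% and 24.4% at Clec4a1, 8.99% and 12.9% at Clec4n, and 6.65% and 4.19% at Clec4a3. The replicates differed more at Clec4d (35.6% and 19.5%), Clec7a (27.6% and 8.20%), Clec4a2 (11.3% and 3.90%) and Clec4e (42.1% and 6.62%). A region of H3.3-HA 1, 123270690-123284156, spanned the 3′ ends of Clec4d and Clec4e. At 13.5 kb it ranked 5 of the 50456 regions of that list by width, and H3.3-HA 2 held shorter pieces there. At Clec4e H3.3-HA 1 also held a region from -0.934 to 0.481 kb that H3.3-HA 2 lacked.

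In the 8 windows 16.5 kb was called in both H3.3-HA replicates. Of this length 82.4% lay in H3K27ac regions of both WT libraries, beside 53.1% over all gene windows, and 51.4% lay in H3K27ac of both cKO libraries, beside 32.2%. The share inside WT H3K36me3 was 51.0% (88.4% with regions of at least 1 kb), beside 23.2% over all gene windows, and 48.3% inside cKO H3K36me3, beside 23.0%. H3.3 was thus found mostly where WT H3K27ac lay at these genes. WT H3K27ac itself covered 33.7% (WT 1) and 31.4% (WT 2) of the 8 windows. Its median coverage was higher at these genes (26.8%) than over all tested genes (8.00%), and the part of this in the overlap was not tested. H3.3-HA came from cells other than the WT and cKO cultures, so the overlap is one of positions and not of the same chromatin.

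There were 16 sites in the windows where both H3.3-HA lists and both WT H3K27ac lists overlapped. At 4 of the 16, at Clec4a1, Clec4n, Clec4d and Clec4e, neither cKO library had H3K27ac, beside 26.2% of 17869 such sites over the genome. The site at Clec4d, at the 3′ side of the gene, was the widest of the 4 with 2541 bp. The Clec4e site (501 bp, 123286523-123287023) lay in exons of noncoding transcripts of the gene and in introns of its coding transcripts. The Clec4a1 site (448 bp, 122928386-122928833) was intronic, and the Clec4n site (107 bp, 123227171-123227277) lay upstream of the gene. It spans -2672 to -2565 bp from the start, near the upstream edge of the WT promoter region. In cKO 2 that promoter region was still called, from -2305 bp on, so only its edge differed there. In cKO 1 the whole promoter region was missing. The sequences of the sites at Clec4e, Clec4a1 and Clec4n are shown because H3.3 and WT H3K27ac coincided there and cKO H3K27ac was absent. Those of Clec4e and Clec4a1 are cut to the central 300 bases, all are read from the mm10 genome in the direction of the gene, and capitals mark matches to the motifs named after them.
Clec4e site, chr6:123286623-123286922, minus strand: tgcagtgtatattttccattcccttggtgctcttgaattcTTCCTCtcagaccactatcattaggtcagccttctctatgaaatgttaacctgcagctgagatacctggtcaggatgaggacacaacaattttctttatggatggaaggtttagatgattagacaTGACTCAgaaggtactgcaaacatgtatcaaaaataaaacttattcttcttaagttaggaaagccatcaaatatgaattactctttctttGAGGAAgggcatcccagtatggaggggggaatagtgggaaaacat
Clec4a1 site, chr6:122928460-122928759, plus strand: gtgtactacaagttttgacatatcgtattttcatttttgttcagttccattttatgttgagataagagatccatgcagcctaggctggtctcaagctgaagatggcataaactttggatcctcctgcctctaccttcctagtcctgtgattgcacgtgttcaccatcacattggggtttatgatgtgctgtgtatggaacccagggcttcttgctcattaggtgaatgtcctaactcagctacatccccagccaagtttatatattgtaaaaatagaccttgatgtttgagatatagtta
Clec4n site, chr6:123227171-123227277, plus strand: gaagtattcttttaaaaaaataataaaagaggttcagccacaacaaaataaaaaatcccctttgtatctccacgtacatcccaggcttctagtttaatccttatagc

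Matches were searched on both strands for the PU.1 core GAGGAA, the AP-1 motif TGANTCA and the C/EBP motif TTGCNNAA, which belong to factors that act in macrophages. The Clec4e site held 2 PU.1 matches and 1 AP-1 match. The sites at Clec4a1 and Clec4n held none. The background was 15241 sites over the genome, at least 300 bases wide, where H3.3-HA and WT H3K27ac overlapped, with or without cKO H3K27ac. Of these, 34.6% held a PU.1 match in their central 300 bases, 12.9% an AP-1 match and 13.7% a C/EBP match. The Clec4n site, with 107 bases, is shorter than these stretches. A match describes the letters only and does not show binding.

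RefSeq promoters were at hand for 7 of the 8 genes, the exception being Clec4n. The 250 bases before the start are shown for the genes whose start or 5′ part differed between genotypes, Clec7a for H3K27ac and Clec12a and Clec4d for H3K36me3, and for Clec4e, the partner of Clec4d (build GRCm38.p6, in the direction of the gene, capitals as above).
Clec7a promoter, chr6:129472780-129473029, minus strand: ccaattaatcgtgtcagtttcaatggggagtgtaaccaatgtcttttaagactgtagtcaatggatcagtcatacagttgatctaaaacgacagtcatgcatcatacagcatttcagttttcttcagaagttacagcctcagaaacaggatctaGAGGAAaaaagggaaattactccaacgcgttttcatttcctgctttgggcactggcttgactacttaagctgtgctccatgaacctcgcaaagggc
Clec12a promoter, chr6:129349994-129350243, plus strand: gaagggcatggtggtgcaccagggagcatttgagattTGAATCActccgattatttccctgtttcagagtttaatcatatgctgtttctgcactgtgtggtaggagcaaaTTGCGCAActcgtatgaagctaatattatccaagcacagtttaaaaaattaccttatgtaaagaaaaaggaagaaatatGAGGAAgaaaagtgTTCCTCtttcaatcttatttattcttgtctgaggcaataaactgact
Clec4d promoter, chr6:123261857-123262106, plus strand: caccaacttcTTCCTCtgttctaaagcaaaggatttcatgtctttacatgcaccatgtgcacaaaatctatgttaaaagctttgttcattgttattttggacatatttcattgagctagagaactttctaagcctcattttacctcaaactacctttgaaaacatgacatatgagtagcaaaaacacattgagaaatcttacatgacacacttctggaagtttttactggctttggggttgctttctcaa
Clec4e promoter, chr6:123289872-123290121, minus strand: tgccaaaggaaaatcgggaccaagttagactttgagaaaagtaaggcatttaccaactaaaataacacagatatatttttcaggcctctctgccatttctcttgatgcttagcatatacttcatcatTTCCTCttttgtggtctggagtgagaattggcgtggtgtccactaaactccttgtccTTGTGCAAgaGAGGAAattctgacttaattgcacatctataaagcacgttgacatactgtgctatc

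The Clec12a promoter held matches to all 3 motifs, with 2 for PU.1, 1 for AP-1 and 1 for C/EBP, and the Clec4e promoter held 2 for PU.1 and 1 for C/EBP. Those of Clec4d and Clec7a held 1 PU.1 match each. Among 32851 RefSeq promoters 23.3% held a PU.1 match in the same 250 bases, 6.75% an AP-1 match and 9.56% a C/EBP match. The PU.1 match of Clec7a lay in the stretch covered by H3K27ac in both cKO libraries and in neither WT library.

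Of 8 further receptor genes in the same blocks (Clec4a4, Clec4b1, Clec4b2, Clec12b, Clec1a, Clec1b, Clec9a and Olr1), 7 had an H3K27ac region and 4 an H3K36me3 region in at least 1 library. Their WT H3K36me3 means lay between 0% and 8.39%, below the lowest of the 8 genes described here, 32.1%. H3K27ac was lower in both cKO libraries at Clec4a4 (-4.71 points) and higher at Clec9a (5.75 points) and Clec1b (4.76 points), whose windows share a region. H3K36me3 was lower at Clec4b1 (-6.32 points) and Clec4a4 (-5.55 points) and higher at 0 of them. Over all tested genes 38.2% were lower and 17.4% higher in H3K27ac, and 37.7% and 7.87% in H3K36me3.

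Of 9 signalling genes downstream of these receptors, H3K27ac was lower in both cKO libraries at 1, the kinase Syk (-11.6 points). It was higher at 3, the phosphatase Ptpn6 (15.2 points), the adaptor chain Fcer1g (9.06 points) and Card9 (2.39 points). H3K36me3 was lower at the phosphatase Ptpn11 (-24.6 points) and at Malt1 (-24.2 points), and higher at Fcer1g (20.9 points). Ptpn11 was at 58.0% and 55.7% in WT, 15.7% in cKO 1 and 48.7% in cKO 2. Malt1 was at 72.1% and 78.4% in WT, 38.7% in cKO 1 and 63.5% in cKO 2. At both genes cKO 1, whose list was short, lay farther from WT than cKO 2. The shares over all tested genes were 38.2% lower and 17.4% higher for H3K27ac, and 37.7% and 7.87% for H3K36me3. With lists of equal covered length the H3K27ac shares were 17.0% and 37.8%, and values of the signalling genes in that setting are not given here. Fcer1g, through which Clec4n, Clec4d and Clec4e signal, was the only gene of the 9 that was higher in both marks, with H3K27ac at 60.1% and 49.6% in WT and 63% and 64.8% in cKO, and H3K36me3 at 58.1% and 50.1% in WT and 63.4% and 86.7% in cKO.

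**Figure D5:**
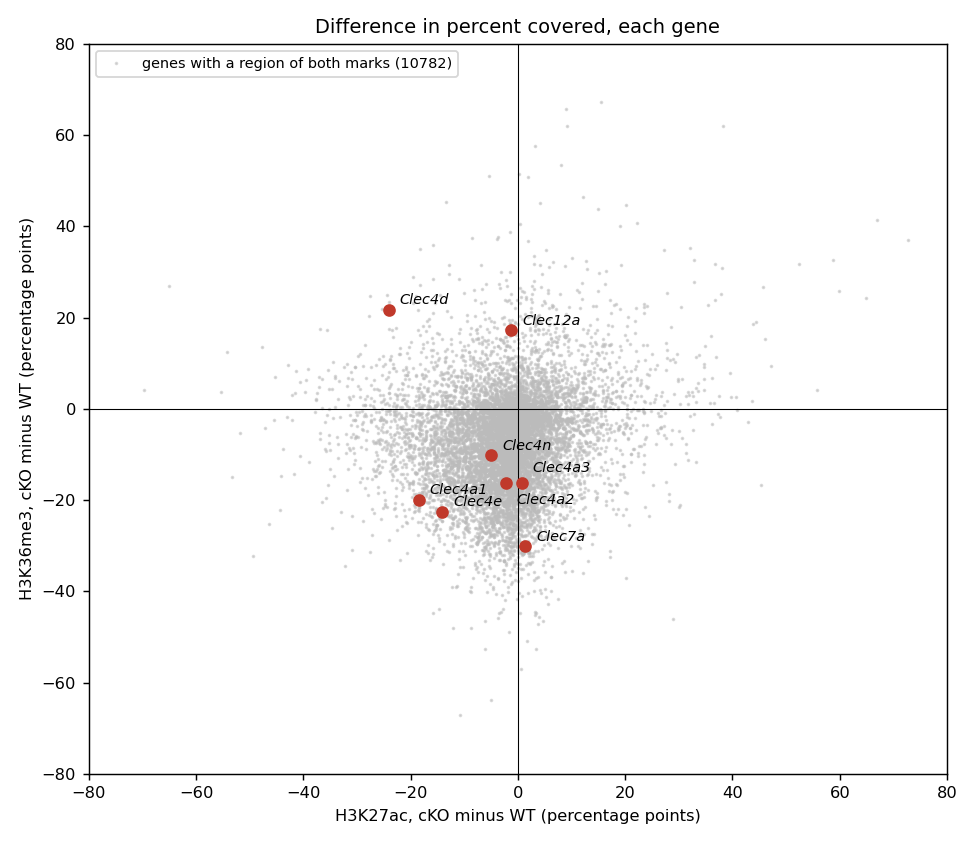
Difference in percent covered, cKO minus WT means of 2 libraries each, for H3K27ac (x axis) and H3K36me3 (y axis), in percentage points, with the 10782 genes that held regions of both marks in grey and the 8 lectin genes in red. Clec4d lies at -24.1 and 21.7, Clec12a at -1.20 and 17.3, and the other 6 genes lie below 0 for H3K36me3.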

How the data were processed

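CUT&RUN libraries of BMDMs were used as region lists, 2 each for H3.3-HA, WT and cKO H3K27ac, and WT and cKO H3K36me3. The 5 IgG samples entered only as the authors' background. Per the labels and the study's methods, the authors aligned paired-end reads to mm10 with Bowtie2 and called regions with HOMER per library. Per the file headers, the peak size was 500 bp, the minimum distance 1000 bp, and regions had to be 4-fold over IgG with a p-value of 1e-04. The header names different IgG directories for WT and cKO, so the controls differed with the genotype. The deposited values are coordinates in bp, with a constant score, so no signal could be compared and the depth per region is unknown.

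Autosomal, X and Y regions were intersected with GENCODE M21 gene bodies plus 5 kb upstream (Python 3.11.15, numpy 2.4.6, matplotlib 3.10.9), and 1 bp of overlap counted as shared. The percent covered was compared between 2 WT and 2 cKO libraries by an exact two-sided permutation test. A gene was called lower or higher when the groups did not overlap. Merged regions were lost when both WT and no cKO libraries held them, and gained in the opposite case. Motifs and 25-base uniqueness were read from GRCm38.p6, and the interval code was tested on simulated data. The study's count-based differential binding needs reads and was not repeated.

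All 8 genes were named. From the lists of neighbouring receptors and signalling genes, up to 4 genes per mark were named, those with the largest difference among genes whose groups did not overlap. The 5 genes nearest to Clec7a were named by Euclidean distance over the 10 libraries. The genes, lists and tests were chosen with earlier results of these data known. Promoter sequences and motifs were chosen after the values were seen, and the sequence of 1 site is not reported here. Alternatives were the gene body alone, 5 kb on both sides, regions of at least 1 kb, lists of equal number or equal covered length, a replicate block and leaving out each library.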

Additional observations from a re-analysis of the deposited data

How the results depend on the processing

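The H3K27ac differences at Clec4d and Clec4a1 kept their direction and non-overlap under each list alternative. At Clec4d the difference stayed at -24.1 points with regions of at least 1 kb, equal number and equal covered length. Its H3K27ac regions were among the widest of each list, so dropping narrow regions could not change it. So did the H3K36me3 differences at Clec4d, Clec12a, Clec7a and Clec4a2. Over all 8 genes, 70 of the alternative values kept their direction for H3K27ac and 10 turned it, against 78 and 2 for H3K36me3. The values that kept it include those of the replicate block, which cannot change a mean difference. The cause of the turns was not tested. The H3K27ac difference became -0.698 points at Clec4a3 and 0.507 at Clec4a2 with regions of at least 1 kb, 3.22 at Clec4n and -0.751 at Clec7a with the gene body only, and 1.10 at Clec4a2 and 3.58 at Clec12a with lists of equal covered length. With a library left out it ran from -9.99 to 0.113 at Clec4n (0.113 without cKO 1), from -6.97 to 4.56 at Clec12a (4.56 without cKO 1), and from -2.08 to 4.81 at Clec7a (-2.08 without WT 2, -1.22 without cKO 2). The H3K36me3 difference ran from -41.4 to 1.52 at Clec4a1 (1.52 without cKO 1) and was 9.16 at Clec4n with equal covered length.

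The count of genes higher in H3K27ac, 0 as reported, was 1 with the gene body only, 1 with regions of at least 1 kb and 2 with equal covered length. It also rose with cKO 1 or WT 1 left out. Shares over all genes were taken only in the main setting and with equal covered length. Genes lower in H3K36me3 numbered 2 with equal covered length. The H3K27ac length difference was -16.9 kb with 5 kb on both sides and -3.15 kb with equal covered length. Leaving out a library put the median difference between -8.48 and -0.951 points for H3K27ac and between -25.4 and -5.44 for H3K36me3. H3.3-HA regions were in both replicates at 5 genes with regions of at least 1 kb. The share of H3.3-HA inside WT H3K27ac was 66.5% with 5 kb on both sides, 92.3% with regions of at least 1 kb and 69.2% to 88.3% with a library left out. Inside WT H3K36me3 it was 58.5% with the gene body only, 88.4% with regions of at least 1 kb, 45.4% with the length called in either replicate and 41.7% to 54.4% with a library left out.

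With a replicate block, pairing WT and cKO libraries of the same number, 4 genes were lower in H3K27ac and 6 in H3K36me3. The deviations of same-numbered libraries correlated at -0.102 for H3K27ac and 0.104 for H3K36me3, and the numbers are not stated to mark a shared mouse or day. With the crossed replicate block, chosen after seeing the data, 4 genes were lower and 2 higher in H3K27ac. No share over all genes was taken for either block. With 2 libraries a group and lists without signal, a region missed by the caller cannot be told from a weaker one.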

Other observations

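Over the percent covered in the 10 libraries, the 5 genes with the pattern most like that of Clec7a were Emb, at a Euclidean distance of 16.4 percentage points, Tmem126a (21.1), Smim3 (21.7), Dapp1 (21.8) and Gm20695 (22.0). The nearest of the other lectin genes was Clec4a2 (24.9) and the farthest were Clec12a (94.4) and Clec4d (144). At Emb, as at Clec7a, H3K36me3 covered more of the window in WT (44.7% and 46.1%) than in cKO (11.9% and 26.7%).

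The length that lay under both marks in both libraries of a genotype summed to 20.6 kb of the 8 windows in WT and 20.1 kb in cKO. It was 8.95 kb in WT and 11.2 kb in cKO at Clec12a, 1.61 kb and 0 kb at Clec4a1, and 2.82 kb and 1.06 kb at Clec4a2.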
